A study of Mus musculus with 2 samples.

Results

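The arrestin family was examined as 7 genes: Arrdc1, Arrdc2, Arrdc3, Arrdc4 and Txnip, which encode alpha-arrestins, and Arrb1 and Arrb2, which encode the beta-arrestins. These genes were represented by 12 of the 34958 probe sets with a single gene symbol, and they were 7 of the 18194 genes on the array. The group was chosen by the lower signal of Arrdc3 on the knockout array, the same comparison that is described here, so the difference of Arrdc3 and the values of its relatives are given as a description of these arrays. RNA came from mouse embryonic fibroblasts, connective tissue cells grown out of embryos of the C57BL/6 strain at embryonic day 13.5 and kept in culture for 2 weeks without treatment. The wildtype group had 1 array and the Malat1 knock-out group had 1 array, of the Affymetrix Mouse430_2 type. The labels do not say how the Malat1 allele was altered, how many embryos gave the cells or whether cells were pooled. With 1 array per genotype there is no replicate check, no test is possible, and genotype cannot be told apart from embryo, culture or array.

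Arrestins are cytoplasmic adaptors with a curved fold of beta sheets. The beta-arrestins bind activated G protein-coupled receptors that have been phosphorylated by receptor kinases, uncouple them from their G proteins and link them to clathrin and its adaptor AP-2 for uptake. The alpha-arrestins are an older branch that carries PY motifs, short stretches bound by ubiquitin ligases of the NEDD4 family, and so brings these ligases to membrane proteins that are to be sorted to endosomes and lysosomes. In fibroblasts, as in most cells, Txnip is also known as an inhibitor of thioredoxin and of glucose uptake.

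Values are log2 signals as deposited, so a difference of 1 stands for 2-fold, and differences are the knockout array minus the wildtype array. A probe set was called measured on an array when it reached the median of that array, 5.39 on the wildtype and 5.44 on the knockout. A gene was represented by its probe set with the highest mean signal. Levels are compared between arrays and never between probe sets, whose brightness depends on their probes.

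The arrays differed in more than the genotype label. Malat1 itself read 9.80 on the wildtype array and 4.53 on the knockout array, at least 20.6-fold lower. Xist, the RNA of the inactive X chromosome, read 4.50 and 11.49, and 3 genes of the Y chromosome (Eif2s3y, Uty, Kdm5d) were measured on the wildtype array alone, so sex-linked transcripts separated the arrays along with genotype. The spike-in controls of the hybridization had 18 probe sets, each lower in the knockout sample, at a median of -0.23. Over the 11295 genes measured on both arrays the median difference was -0.05 and the SD across genes 0.24.

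Arrdc3 was the only member past 1.5-fold. This alpha-arrestin recruits NEDD4 family ligases to receptors and integrins, and is studied as a regulator of body weight and of tumour cell growth. Its single probe set, 1454617_at, read 8.13 on the wildtype array and 6.58 on the knockout array, 2.91-fold lower (-1.54). Both signals were above the floor, by 2.73 on the wildtype and 1.15 on the knockout array, so the ratio is measured on both sides. Arrdc3 had the fifth lowest difference of the 11295 measured genes (rank 5). In all, 1.61% of measured genes were at least 1.5-fold lower and 0.266% at least 2-fold lower. Among the 6 members measured on both arrays, 1 was past each of these marks. Since Arrdc3 was chosen for this difference, nothing is read from that count. No second probe set was there to compare it with. With the floor raised to the 75th percentile of each array, the knockout signal of Arrdc3 was no longer measured and no member was counted as lower.

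**Figure D1:**
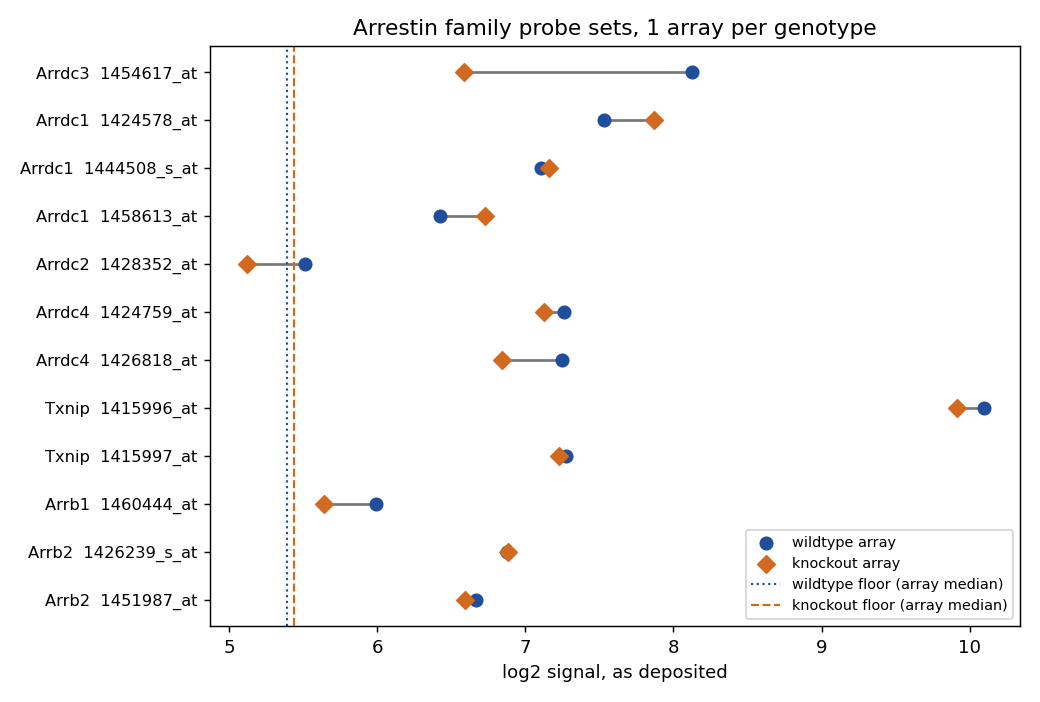
Log2 signal (horizontal axis) of each of the 12 arrestin family probe sets (rows), with the wildtype array as circles, the knockout array as diamonds, and vertical lines at the floor of each array (5.39 and 5.44). Arrdc3 shows the widest gap, from 8.13 to 6.58, while the points of the other members lie within 0.41 of each other.

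The genes nearest in difference to Arrdc3 came from unrelated families. Likeness was measured as the distance between differences, which over 2 arrays says only that the ratios were close. Taf15, an RNA-binding protein of the FET family, was nearest at -1.54 (7.89 and 6.35). The chemokine Cxcl5 followed at -1.58 (7.57 and 5.99), then Coch at -1.50 (8.25 and 6.75). Mdk, the growth factor midkine, stood at -1.48 (9.26 and 7.78) and Ifi202b, of the interferon-inducible p200 family, at -1.48 (8.71 and 7.23). None of these 5 genes belongs to the arrestin family or to the lists of related genes described here.

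Genes around Arrdc3 on chromosome 13 did not share the size of its difference. Of the 3 protein-coding genes with a probe set nearest on each side in RefSeq order, 5 of 6 were measured on both arrays. All 5 were within 1.5-fold, as were most measured genes, of which 1.61% were at least 1.5-fold lower and 0.832% higher. Nothing about this stretch is read from that count. Nr2f1, a nuclear receptor and the nearest gene on one side, read 8.17 and 7.92 (-0.25), while beyond it Pou5f2 differed by 0.41 and Fam172a by -0.17. On the other side Adgrv1, an adhesion receptor, was below the floor on both arrays (4.02 and 4.24), Lysmd3 differed by -0.21 and Polr3g, a subunit of RNA polymerase III, by 0.02. The 7 arrestin family genes themselves are spread over 6 chromosomes, with Arrdc4 and Arrb1 both on chromosome 7.

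Txnip and Arrdc4, alpha-arrestins known to be induced by glucose, were within 1.5-fold at every probe set. Txnip, which binds thioredoxin and lowers glucose uptake, read 10.09 and 9.91 at probe set 1415996_at (-0.18) and 7.28 and 7.23 at 1415997_at (-0.05). Arrdc4, which also lowers glucose uptake, read 7.26 and 7.13 at probe set 1424759_at (-0.13) and 7.25 and 6.84 at 1426818_at (-0.41). All 4 probe sets of this pair were lower on the knockout array, none by 1.5-fold, and 61.7% of the 19187 measured probe sets were lower by any amount. The gap between probe sets of the same gene was 0.13 for Txnip and 0.28 for Arrdc4. Over all measured genes, the pooled SD between probe sets of a gene was 0.20. The Txnip and Arrdc4 differences at the brightest probe sets were smaller than that spread. The other Arrdc4 probe set (-0.41) and the mean of both (-0.27) were larger than it.

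The stretches before the transcription starts of these 3 genes are shown because Txnip and Arrdc4 are textbook targets of the glucose-sensing factors of the Mondo family and their partner Mlx, while it was Arrdc3 that differed between the arrays. Each is the 250 bases before the first base of a RefSeq transcript on the gene's strand (build GRCm38.p6): Arrdc3 at chr13:80883134-80883383 (plus strand), Txnip at chr3:96557707-96557956 (plus strand) and Arrdc4 at chr7:68749239-68749488 (minus strand). Capitals mark matches on either strand to 4 motifs, namely the paired half-sites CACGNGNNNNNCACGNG, the E-box CACGTG, the forkhead core GTAAACA and the CCAAT box, which reads ATTGG on the other strand.
Arrdc3: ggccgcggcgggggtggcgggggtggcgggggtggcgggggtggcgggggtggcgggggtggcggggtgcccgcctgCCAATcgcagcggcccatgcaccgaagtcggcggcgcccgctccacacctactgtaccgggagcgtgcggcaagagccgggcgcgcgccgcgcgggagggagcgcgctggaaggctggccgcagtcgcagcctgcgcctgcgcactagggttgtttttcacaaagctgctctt
Txnip: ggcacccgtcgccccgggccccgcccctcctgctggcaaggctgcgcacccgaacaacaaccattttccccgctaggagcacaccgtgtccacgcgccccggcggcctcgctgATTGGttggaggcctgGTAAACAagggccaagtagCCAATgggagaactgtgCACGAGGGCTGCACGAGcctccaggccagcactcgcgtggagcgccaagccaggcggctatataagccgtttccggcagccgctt
Arrdc4: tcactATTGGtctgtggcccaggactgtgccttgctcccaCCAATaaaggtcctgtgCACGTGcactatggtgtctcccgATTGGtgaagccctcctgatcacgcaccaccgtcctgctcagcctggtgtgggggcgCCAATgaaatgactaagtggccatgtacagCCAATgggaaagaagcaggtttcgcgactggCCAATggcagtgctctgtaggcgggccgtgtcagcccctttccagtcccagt
The paired half-sites were searched only as a repeat in the same direction, and other arrangements that Mondo and Mlx dimers may bind were not searched. This form was present in Txnip, starting 85 bases before the start. It was found in 0.0457% of the 32851 windows of this length in the RefSeq promoter table. Txnip also held a forkhead core 121 bases before the start, which was found in 3.17% of windows. Arrdc4 held no paired site of the searched form but an E-box 193 bases before the start (6.02% of windows). It also held 6 CCAAT boxes, a motif found in 33.8% of windows. The Arrdc3 window held 1 CCAAT box, 173 bases before the start, and none of the other motifs. The table has 3 start sites for Arrdc3, and none of the 3 windows held the paired half-sites, the E-box or the forkhead core. The window shown shares most of its bases with another of them, at chr13:80883172-80883421, so the 3 are not separate stretches. A match is only a match of letters, and the absence of one describes these windows alone. The Arrdc3 window was 76.0% G and C, against 66.8% for Txnip and 58.0% for Arrdc4. Of the 7 members, 5 had an entry in the promoter table, Arrdc1 and Arrdc2 among them.

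Arrdc1 was the only alpha-arrestin higher on the knockout array. This member recruits ESCRT proteins to the plasma membrane, where vesicles bud from the cell surface. Its brightest probe set, 1424578_at, read 7.53 on the wildtype and 7.87 on the knockout array (0.33, 1.26-fold higher). Probe set 1458613_at read 6.43 and 6.73 (0.30), and 1444508_s_at, of a kind that can pick up several transcripts, read 7.11 and 7.16 (0.05). All 3 probe sets were thus higher on the knockout array, none by 1.5-fold. The difference of the gene stayed positive under the 3 other scalings (0.40, 0.46 and 0.44). The remaining alternatives could not turn its sign, since all 3 probe sets were higher. Of the measured genes, 94.52% had a lower difference than Arrdc1, and 0.832% were at least 1.5-fold higher.

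Arrdc2 lay at the edge of detection. Its single probe set, 1428352_at, read 5.51 on the wildtype array, 0.12 above the floor, and 5.12 on the knockout array, below the floor. The signal was therefore at least 1.05-fold lower on the knockout array, a bound too close to equality to give a direction. Arrdc2 is the member that was not counted among the 6 measured on both arrays.

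The beta-arrestins differed less than Arrdc3, the gene for which the group was chosen. Arrb1, the first of the pair that end signalling by many G protein-coupled receptors, read 5.99 and 5.64 at probe set 1460444_at (-0.35). These signals were 0.60 and 0.20 above the floor, and 7.862% of measured genes had a lower difference. Arrb2, its close paralogue, read 6.88 and 6.89 at probe set 1426239_s_at (0.01) and 6.67 and 6.60 at 1451987_at (-0.07). The sign of Arrb2 turned when its probe sets were averaged, when the median over them was taken and when the probe set ending in _s_at was left out, so no direction is given. Neither gene passed 1.5-fold on these arrays.

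Over the family, 4 of the 6 measured members were lower on the knockout array and 2 were higher. The same counts were found with 3 alternative scalings. With probe sets averaged, with their median, or without those ending in _x_at or _s_at, 5 of 6 were lower. The share of all measured genes that were lower by any amount was 59.8% with the values as deposited. This share was not computed under the 3 scalings, where the median of all genes was 0.01 to 0.02. At probe set level 7 of the 11 measured probe sets were lower and 4 higher, where 61.7% of all measured probe sets were lower. The median over the 6 members was -0.16, and -0.13 over the 5 besides Arrdc3, whose differences ran from -0.35 to 0.33. The distance from Arrdc3 to the next lowest measured member, Arrb1, was 1.19. Since Arrdc3 was chosen for its difference, nothing is read from that distance.

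**Figure D2:**
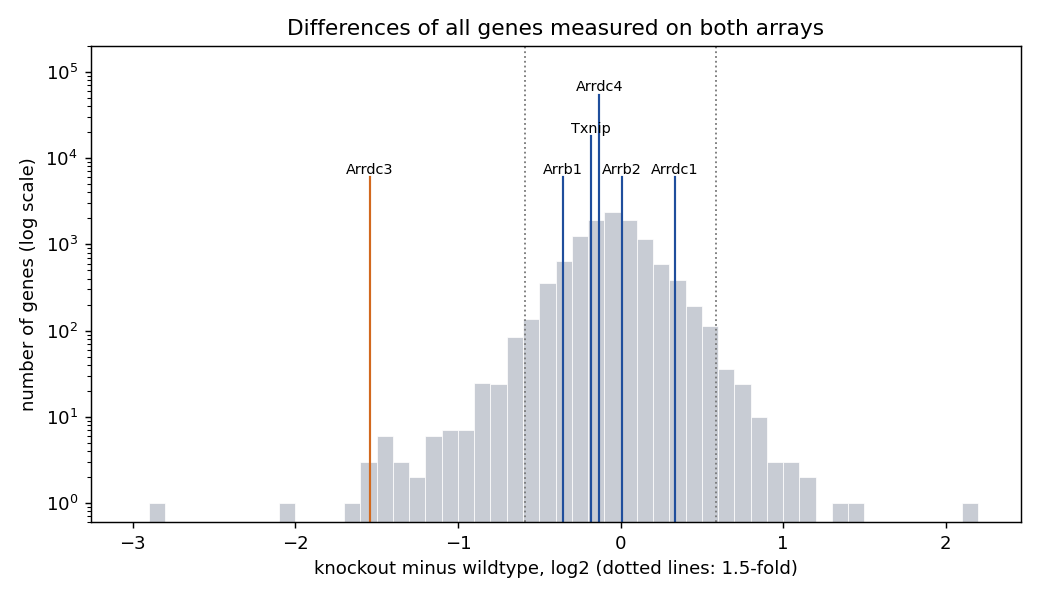
Number of genes (vertical log axis) by knockout minus wildtype log2 difference (horizontal axis) for the 11295 genes measured on both arrays, with labelled lines, whose heights have no meaning, for the 6 measured arrestin family genes. Arrdc3 stands at -1.54 in the lower tail, and the other 5 lie between -0.35 and 0.33, inside the dotted lines for 1.5-fold.

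The counts over all genes depended on how the arrays were scaled, as did their split. As deposited, 182 genes were at least 1.5-fold lower and 94 higher. The counts were 135 lower and 146 higher with the median difference set to 0. Quantile normalization gave 109 and 165, and loess centring 131 and 136. Arrdc3 ranked 5, 6 and 7 from the lowest under these scalings, in the same order, and 11 both with 64 added to linear values and with no floor. Under the 3 scalings its difference was -1.48, -1.44 and -1.44.

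**Figure D3:**
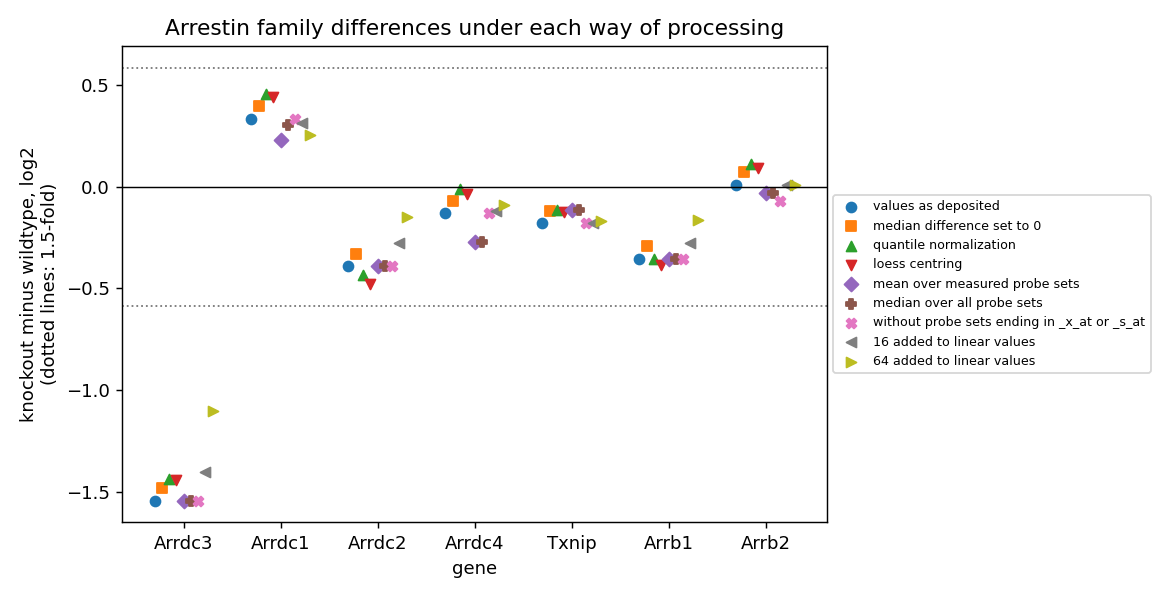
Knockout minus wildtype log2 difference (vertical axis) of each arrestin family gene (horizontal axis) with the values as deposited and under 8 other ways of processing, one marker each, with dotted lines at 1.5-fold. Arrdc3 stays below the lower line throughout, at -1.54 to -1.10, Arrdc1 stays above 0, and Arrb2 crosses 0.

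Genes that work with the family were then compared in 10 lists, written with earlier results of these arrays known. The lists named 95 genes, of which 7 had no probe set with a single symbol in the annotation used here and were not analysed here. Of the 79 measured on both arrays, 54 were lower in the knockout and 25 higher, where 59.8% of all measured genes were lower. Their median was -0.10. Under the other scalings 42 or 43 of the 79 were lower, where the median of all genes was 0.01 to 0.02. The share of all genes that were lower was not computed under these scalings. Past 1.5-fold, 4 genes were lower (5.06%, against 1.61% of all measured genes) and 1 was higher. Since the lists were written with results of these arrays known, nothing is read from that share. The 4 lower genes were Ap2b1, Dnm1, Vps37c and Wwp2, and the higher one was Slc2a4. After quantile normalization 2 of the 79 were at least 1.5-fold lower and after loess centring 3. Over all measured genes the counts were then 109 of 11297 and 131 of 11305.

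The uptake machinery that beta-arrestins engage was split in direction. Ap2b1, the AP-2 subunit that beta-arrestins bind, read 9.39 and 8.05 at probe set 1452292_at (-1.35), but its other measured probe set, 1427077_a_at, read 8.31 and 8.41 (0.10). The probe sets therefore disagreed, and the gene has no agreed direction here. Dnm1, a dynamin that pinches off coated vesicles, read 7.74 and 7.07 (-0.68), and its dimmer probe set read 5.61 and 5.30, the latter below the floor. Quantile normalization and loess centring ended its call at 1.5-fold. Ap2m1, the AP-2 subunit that reads sorting signals, differed by -0.34 and Dnm2, the widely expressed dynamin, by 0.24. Of the 11 measured genes for clathrin, AP-2 and dynamin, 6 were lower and 5 higher, with a median of -0.03 that turned positive under the other 3 scalings. The list for receptor kinases had 2 measured genes, with Grk6 at -0.15 and Grk5 at 0.09, and Grk3 and Grk4 were not measured on both arrays.

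Ubiquitin ligases of the NEDD4 family, the partners of alpha-arrestins, were close to the centre of all genes, with 5 of 9 measured genes lower and a median of -0.05 that turned positive under the other 3 scalings. Wwp2, a ligase of this family, was the exception at 8.33 and 7.64 (-0.70), and its other measured probe sets differed by -0.15 and -0.30. Its call at 1.5-fold was lost after quantile normalization. Nedd4, the founding member, read 12.14 and 11.78 (-0.36), Nedd4l differed by -0.13 and Smurf2 by -0.10. The next step of sorting, the ESCRT proteins that gather ubiquitinated cargo, had 10 of 12 measured genes lower and a median of -0.11. Under each other scaling 7 of 12 were lower. As deposited 59.8% of all measured genes were lower, and the median of all genes under the other scalings was 0.01 to 0.02. Vps37c, an ESCRT-I subunit, read 9.02 and 8.32 (-0.70), with a second probe set at -0.10. Its relative Vps37a differed by -0.46, the ubiquitin-binding Hgs by -0.19 and Pdcd6ip, also known as ALIX, by -0.17.

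**Figure D4:**
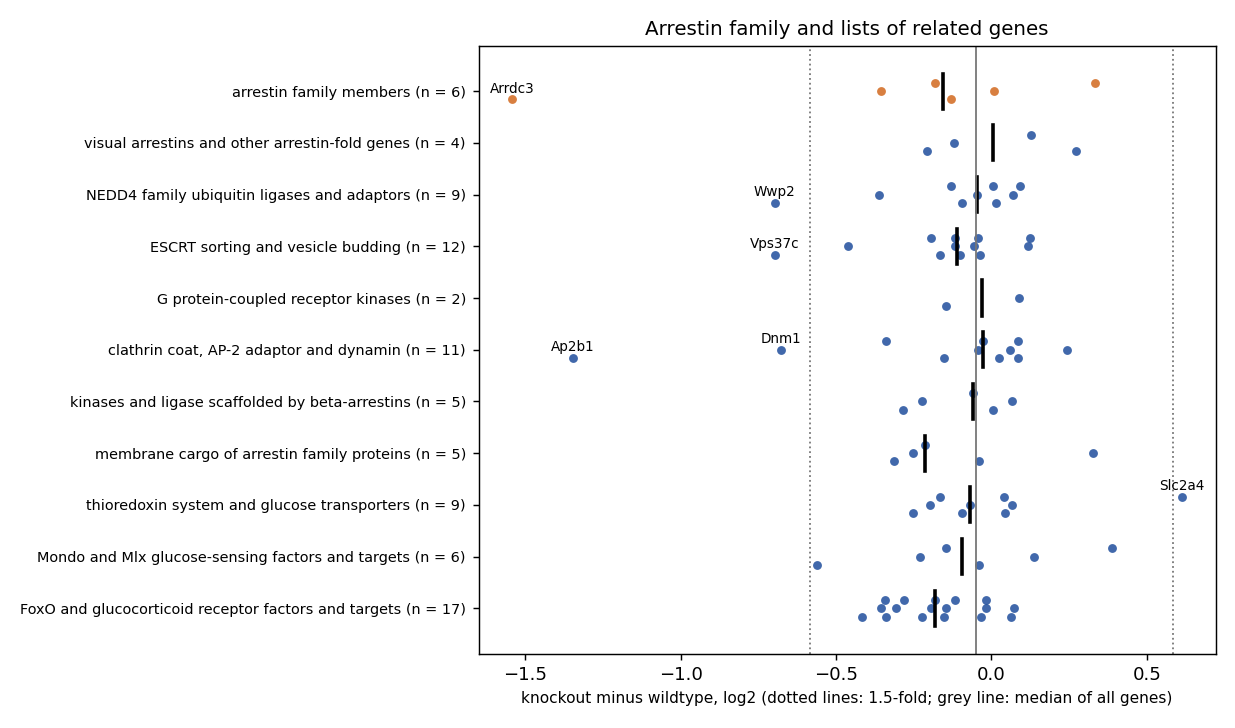
Knockout minus wildtype log2 difference (horizontal axis) of each measured gene (points) in the arrestin family and in 10 lists of related genes (rows, with n measured), where black bars are list medians, the grey line is the median of all measured genes (-0.05) and dotted lines are 1.5-fold. Arrdc3 and Ap2b1 lie farthest to the left, and Slc2a4 is the only point past the line on the right.

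Membrane cargo and signalling partners of arrestins stayed within 1.5-fold, as did most measured genes, of which 1.61% were at least that much lower and 0.832% higher. Of 5 measured cargo genes 4 were lower, with a median of -0.21, and 3 of 5 under each other scaling. The share of all measured genes that were lower was 59.8% as deposited. F2r, the thrombin receptor, was higher at 12.94 and 13.26 (0.33), while the receptor Notch1 differed by -0.31, the insulin receptor gene Insr by -0.21 and the glucose transporter gene Slc2a1 by -0.25. Itgb4, an integrin chain whose degradation Arrdc3 is known to promote, was below the floor on both arrays (4.93 and 5.12). Among 5 measured partners that beta-arrestins scaffold, 3 were lower, with a median of -0.06. The kinase gene Akt1 differed by -0.28, the kinase genes Map2k2 and Map2k1 by -0.22 and -0.06, and Mdm2, a ubiquitin ligase that modifies beta-arrestins, by 0.07. The sign of Map2k1 turned when the median difference was set to 0.

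Genes around Txnip function gave no common direction. Of 9 measured genes for thioredoxins, their reductases and glucose transporters, 5 were lower and 4 higher, with a median of -0.07 that turned positive after quantile normalization and loess centring. Slc2a4, the insulin-regulated glucose transporter, read 5.51 and 6.12 (0.61), just above the floor on the wildtype array. Its other probe set reached neither floor, at 5.17 and 5.41. Loess centring ended the call. Txn1, the thioredoxin that Txnip inhibits, read 13.66 and 13.72 (0.07), while the reductases Txnrd1 and Txnrd3 differed by -0.20 and -0.17. The factors upstream of Txnip and Arrdc4 were no clearer, with 4 of 6 measured genes of the Mondo and Mlx list lower, a median of -0.09, and 3 of 6 lower under each other scaling. Mlxip, which encodes MondoA, read 7.73 and 7.59 (-0.15) and its partner Mlx differed by -0.04, a sign that turned with every other scaling. Max, a related partner factor, differed by -0.56, the target Pklr by 0.39 and Klf10 by -0.23.

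Factors and targets of FoxO proteins and the glucocorticoid receptor, which are known to induce several arrestin domain genes, were mostly slightly lower. Of 17 measured genes 15 were lower, with a median of -0.18, and none passed 1.5-fold. Over all measured genes 59.8% were lower, the median was -0.05, and 1.61% were at least 1.5-fold lower. Under each of the other scalings 12 of 17 were lower, with medians of -0.12 to -0.07, where the median of all genes was 0.01 to 0.02. The stress-response gene Ddit4 read 11.61 and 11.19 (-0.42), the phosphatase gene Dusp1 10.46 and 10.11 (-0.35) and the kinase gene Sgk1 11.07 and 10.73 (-0.34). Foxo1, a forkhead factor held back by insulin signalling, read 8.09 and 7.75 (-0.34). The receptor gene Nr3c1 differed by -0.02, and its targets Fkbp5 and Tsc22d3 by 0.06 and -0.03. The signs of Nr3c1 and Tsc22d3 turned under each other scaling. Other arrestin-fold genes, outside the 7 described, had 2 of 4 measured genes lower, with the cone arrestin gene Arr3 at 0.27, the retromer subunits Vps26b and Vps26a at -0.21 and -0.12, and Vps26c at 0.13.

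Markers of cell types that such a culture can hold also differed between the arrays. Fibroblast markers were measured for all 10 genes of the list, with Col1a2 and Vim above 14 on both arrays (14.58 and 14.43, 14.25 and 14.30), and 7 of 10 were lower in the knockout, near the 59.8% of all measured genes. The collagen gene Col1a1 (-0.95) and the growth factor receptor gene Pdgfra (-0.73) were past 1.5-fold lower, and Dcn, for the proteoglycan decorin, was past it on the higher side (0.74). Macrophage and leukocyte markers were lower for 8 of 9 measured genes, with a median difference of -0.42. The exception was Csf1r at 0.07. Their summed linear signal was 3861 on the wildtype and 3037 on the knockout array. The brightest marker, Lyz2, read 11.20 and 10.74 (-0.46) and weighed most in this sum. Mrc1, a mannose receptor, was at -0.59, a 1.5-fold call lost under each other scaling, and Itgam was below the floor on both. Epithelial markers were higher for 5 of 5 measured genes, with sums of 880 and 1134 and the claudin gene Cldn4 at 1.13, and Cdh1, Krt8 and Krt14 were not measured on both arrays. Endothelial markers were higher for 4 of 4, with sums of 804 and 1298. Emcn, the endothelial mucin endomucin, differed by 1.47, and the sums of the other 3 were 619 and 788, while Pecam1, Cdh5, Tek and Tie1 reached the floor on neither array. Neural and skeletal muscle markers were split, with 3 of 6 higher in each list. Gap43, a growth cone protein, was at 0.86 and the myosin light chain Mylpf at -0.60, a call lost under each other scaling. The sums add probe sets of unlike brightness, so the brightest weigh most. Fewer cells of a type and less RNA per cell cannot be told apart in such bulk RNA, and the part of these cell types in the arrestin family values was not tested.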

How the data were processed

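RNA from 1 wildtype and 1 knockout culture was measured, grouped by the labelled genotype. RNA for hybridization was amplified from the 3′ end and labelled with biotin, starting from 100 ng, per the labels' protocols. The values deposited by the authors were taken here as log2 signals from their range (2.09 to 14.71). Their summarization and normalization, not given in the sources used here, leave the effect of these steps on the differences unknown. The file held 45037 probe sets besides 64 controls. Names came from the platform's annotation, where 34958 probe sets had 1 symbol (13 of them controls), 932 had several and 9160 besides controls had none, and 34754 matched a RefSeq gene identifier (GRCm38.p6).

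Members and gene lists were chosen with earlier results of these data known. Differences, counts past 1.5-fold and medians were computed with Python 3.11.15 and pandas 2.3.3. Named are every member probe set, the brightest Malat1 probe set, up to 4 genes of each pathway list with the largest difference and any past 1.5-fold, and the 5 genes closest to Arrdc3. Neighbours of Arrdc3, its motif matches, Xist, the Y-linked genes, Adgrv1, Txn1, Mlx, Nr3c1, Fkbp5, Tsc22d3, Itgb4, the cell type markers and unmeasured genes were added after the values were seen. Alternatives were 3 other scalings (median difference at 0, quantile, loess with a span of 0.3), other rules for several probe sets, other floors, 16 or 64 added to linear values, and other fold sizes. The arrays' number limits the precision.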

Additional observations from a re-analysis of the deposited data

How the results depend on the processing

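Each of 25 values and counts was recomputed under 11 alternatives, where it could be given. The endothelial median was also taken without Emcn, added after seeing the data. Of 278 recomputed values, 269 moved by less than the spread between probe sets of a gene (0.20) or, for counts, by less than 1.5 times. Part of these were fixed in advance. A floor leaves the difference of a single gene unchanged, and rules for several probe sets do not touch Arrdc3, Arrdc2 and Arrb1, with 1 each. Medians near 0 also turned sign within that limit, such as that of the receptor kinase list under 5 alternatives. No paired analysis was possible because there is 1 array of each genotype, and for the same reason no array could be left out. Adding 64 to linear values moved Arrdc3 to -1.10 and Arrdc2 to -0.15, as an added constant shrinks differences of dim probe sets. With the floor at the 75th percentile the counts of members at least 1.5-fold and at least 2-fold lower became 0, because Arrdc3 then lay below the floor on the knockout array and 1 member was still measured. At a size of 3-fold the count was also 0. With the floor at the 75th percentile the medians became -0.20 for macrophage, -0.10 for neural and 0.22 for skeletal muscle markers, and without a floor the muscle median was 0.26. The neural and muscle values have the opposite sign to those medians as deposited. A floor alters only which markers enter a median. At the 75th percentile the neural value was that of Ncam1 (-0.10) and the muscle value that of Acta1 (0.22). Without a floor the unmeasured Myog (0.30) and Myod1 (0.62) entered the muscle median. Signal over background limits Arrdc2 and Arrb1, which lie near the floor.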
